A study of Saccharomyces cerevisiae with 6 samples.

Results

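ROX1 and 6 other genes of the hypoxic response of Saccharomyces cerevisiae were followed in this study: the repressor genes ROX1 and MOT3, the haem synthesis gene HEM13, and the hypoxic isoform genes ANB1, COX5B, AAC3 and CYC7. They were chosen by name, 7 of the 7127 genes in the deposited count table, and all 7 passed the filter on low counts. Polyadenylated RNA of a MATa haploid strain of S288c background, grown in YPD (rich glucose medium) at 30 °C, was sequenced in 6 libraries from 3 independent experiments. Both groups carry the same engineered genotype, with TetO and TRP1 at trp1, LacO and hphNT1 at lys4, LacR-GFP and HIS3 at his3, TetR-mCherry, Cre-EBD78 (a recombinase fused to a hormone-binding domain) with LEU2 at leu2, and an ade2 allele. At SHS1, a septin gene, a loxP site and mCherry are followed by the 3' UTR of CLN2, the NatNT2 marker, another loxP site and GFP. The 0 min group (mCh*, 3 libraries) was collected at the addition of 1 µM beta-estradiol, and the 180 min group (mCh-, 3 libraries) 180 min later. The hormone activates Cre, which excises the loxP-flanked mCherry segment, and how far excision had gone was not measured here. No library separates the hormone, the excision and the time in culture, so their parts in any difference between the groups cannot be told apart. The labels name no difference in oxygen between the groups, and no source used here gives a measurement of it.

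As background, budding yeast senses oxygen largely through haem, whose synthesis needs oxygen. When haem is plentiful the activator Hap1 drives transcription of ROX1, whose product is an HMG-box protein that binds hypoxic promoters and recruits the Tup1-Cyc8 corepressor. Mot3, a zinc finger protein, assists repression at part of these promoters. When oxygen falls, less Rox1 is made and its targets are transcribed. Several targets encode isoforms of proteins that have an aerobic partner: ANB1 and HYP2 for translation factor eIF5A, COX5B and COX5A for subunit V of cytochrome c oxidase, AAC3 and PET9 (with AAC1) for the ADP/ATP carrier of the inner mitochondrial membrane, and CYC7 and CYC1 for cytochrome c. HEM13 encodes coproporphyrinogen III oxidase, an oxygen-using step of haem synthesis. In S288c the HAP1 gene carries a Ty1 insertion that impairs the protein.

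Rox1 binding sequences share the core ATTGTT, and the windows around this core upstream of several genes are shown because they mark where Rox1 could bind. Each is 30 bases of the R64 reference, credited to RefSeq, read 5' to 3' on the strand that holds the core. Capitals mark the core together with the letters that continue it towards the longer form ATTGTTCTC.
ANB1, chrX:525676-525705, minus strand: tttcgtttttccATTGTTCgttcgttgcct
ANB1, chrX:525645-525674, minus strand: ttttttcgccctATTGTTCTCgagcctaaa
ANB1, chrX:525578-525607, minus strand: gtttcctattccATTGTTCTCtttggtaaa
ANB1, chrX:525557-525586, minus strand: tttggtaaactcATTGTTgtcggaactcag
HEM13, chrIV:546448-546477, plus strand: cttgctttgcccATTGTTCTCgtttcgaaa
COX5B, chrIX:154986-155015, plus strand: ttttgattttgtATTGTTCgataaggcaac
AAC3, chrII:415777-415806, plus strand: tttttctttttcATTGTTtggttgccttca
ROX1, chrXVI:679288-679317, plus strand: agaaaagggcctATTGTTgctgcctctttt
COX5A, chrXIV:531618-531647, minus strand: cttatttaattgATTGTTCTttttaacttt

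ANB1 held the densest set. Within 500 bases before its start codon ATTGTT occurred 4 times, with first bases at -312, -281, -214 and -193, all on the strand of the gene. COX5B held 3 matches, ROX1 and HEM13 held 2 each, MOT3 and AAC3 held 1 each, and CYC7 held 0, counting both strands. The core is common: 48.9% of 6000 nuclear promoters of that length held at least 1 match, whereas 0.433% held at least 4. The longer form ATTGTTCTC, which contains the core and was added after the matches were seen, stood in 1.13% of promoters, with 2 copies before ANB1 and 1 before HEM13. Among the 5 aerobic partners, COX5A held 1 core match and HYP2, PET9, AAC1 and CYC1 held 0.

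Letters linked to other regulators of these genes were searched in the same windows. AGGCA, a Mot3 sequence, was found before all 7 hypoxic genes with 1 to 3 copies each, and in 51.8% of promoters. Among the partners AAC1 held 5 copies, the most of the 12 genes (0.25% of promoters held at least 5), CYC1 held 3, COX5A held 2, and HYP2 and PET9 held 0. AGGTA, its other form, was found before 4 of the 7 and in 57.1% of promoters. CGGNNNTA, linked to Hap1, was found before ROX1, MOT3 and ANB1, before the partners COX5A and CYC1, and in 34.4% of promoters. CCAAT, bound by the Hap2/3/4/5 complex, was found before 5 of the 7 and in 62.4% of promoters, and before ROX1 it overlapped the Rox1 core that starts at -464. Among the partners PET9 held 3 copies of CCAAT, HYP2, COX5A and AAC1 held 2 each, and CYC1 held 0. TCGTATA, linked to Upc2 and Ecm22, was found before CYC7 and in 7% of promoters. A match describes letters in the window and is not a measured binding site.

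**Figure D1:**
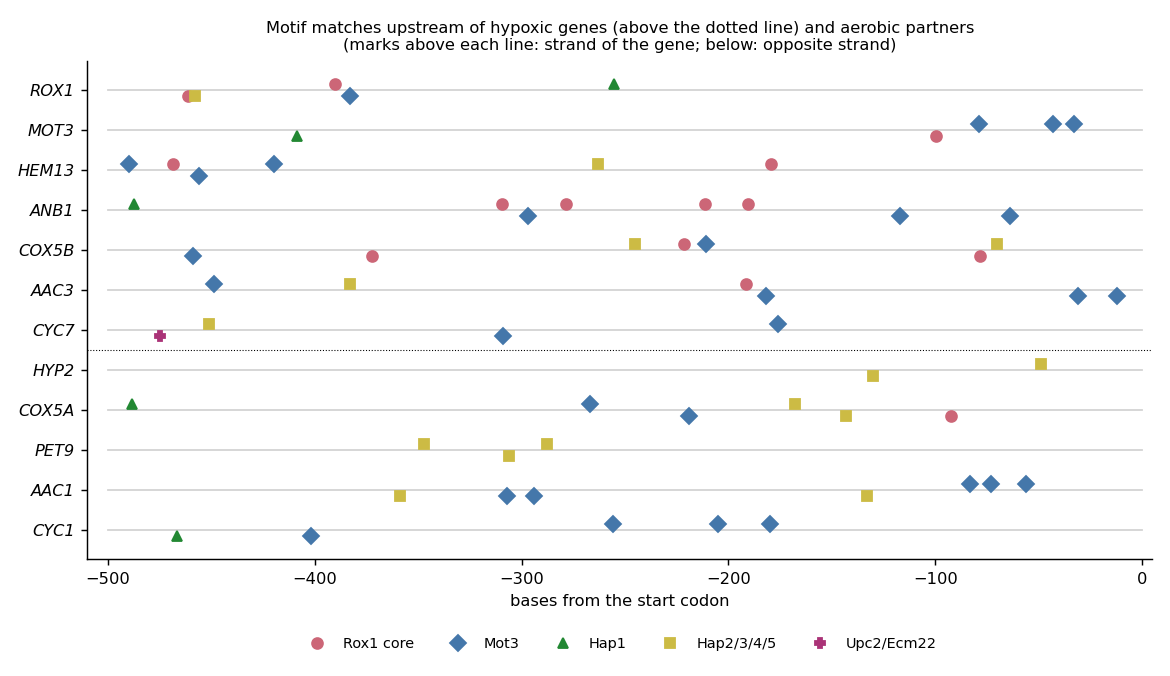
Positions of motif matches in the 500 bases before the start codon (horizontal axis, bases) of the 7 hypoxic genes and 5 aerobic partners, with marks above each line on the strand of the gene and marks below on the opposite strand. The 4 Rox1 core matches before ANB1 lie between -312 and -188, and CYC7 has 0.

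ROX1 mRNA fell between the times while 3 of the 4 hypoxic isoform genes rose. In CPM, the read count scaled to library size with TMM composition factors, ROX1 went from 136 ± 4.36 to 74.2 ± 6.27, ANB1 from 11.8 ± 0.732 to 20.8 ± 0.853, COX5B from 145 ± 14.3 to 232 ± 14.1 and CYC7 from 223 ± 17.6 to 385 ± 88.5 (mean ± SD, n = 3). MOT3, HEM13 and AAC3 were not called. The 4 calls among 7 genes stand against 57.7% of the 6220 genes tested, with 29.5% called higher and 28.2% called lower, at an adjusted p below 0.05 in edgeR's quasi-likelihood test. Of all calls 51.1% were higher, and 75.6% were with library sizes only as the scale. The share called among the hypoxic genes is thus near that of all genes. The libraries of the 2 times did not overlap for the same 4 genes, against 63.4% of all genes. The median log2 fold change of the 7 was 0.02, and that of all genes tested was also 0.02. In these bulk libraries, a lower share of cells that make a transcript and less of it per cell cannot be told apart.

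The repressor ROX1 (YPR065W, chromosome XVI, 679693 to 680799 in R64) stood at 140.2, 137 and 132 CPM in the 0 min libraries and at 72.4, 81.2 and 69.1 CPM in the 180 min libraries. Every 0 min library lay above every 180 min library, and the lowest 0 min value was well above the highest at 180 min. The log2 fold change was -0.88 ± 0.08 (SE), a fold of 0.545, with a 95% confidence interval of -1.05 to -0.70 and an adjusted p of 3.19e-07 in edgeR. Of all genes tested, 7.59% had a lower log2 fold change than ROX1.

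MOT3 (YMR070W, chromosome XIII, 409154 to 410626), the gene of the partner repressor, was at 66.2, 66.2 and 66.1 CPM at 0 min and at 69.3, 59.4 and 55.9 CPM at 180 min. The 0 min libraries were almost equal and the 180 min libraries lay on both sides of them. Its log2 fold change was -0.10 ± 0.09 (SE), with a confidence interval of -0.29 to 0.08, so a fall as large as that of ROX1 lay outside the interval. The difference between ROX1 and MOT3 was not tested.

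HEM13 (YDR044W, chromosome IV, 546642 to 547628) was at 63.2, 62.7 and 63.8 CPM at 0 min and at 64.1, 59.0 and 68.6 CPM at 180 min. The libraries of the 2 times were intermixed. The log2 fold change was 0.02 ± 0.08 (SE), with an interval of -0.16 to 0.19. It was called higher, at 0.27, when library sizes alone were used as the scale, a setting that also moved the median of all genes by 0.25 on the log2 scale.

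ANB1 (YJR047C, chromosome X, 524908 to 525381), the hypoxic eIF5A gene with the 4 core matches shown above, was at 11.6, 11.1 and 12.6 CPM at 0 min and at 20.7, 20.0 and 21.7 CPM at 180 min. Each time formed a tight cluster, with a clear gap between them. Its log2 fold change of 0.82 ± 0.12 (SE; interval 0.56 to 1.08) corresponds to a fold of 1.77, with an adjusted p of 3.54e-05 in edgeR.

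COX5B (YIL111W, chromosome IX, 155222 to 155765), the hypoxic oxidase subunit gene, which has an intron of 88 bases after its first coding base, was at 153, 128 and 153 CPM at 0 min. At 180 min it was at 248, 227 and 222 CPM, above all 0 min libraries. The rise was 0.68 ± 0.09 on the log2 scale (SE; interval 0.49 to 0.87), a fold of 1.60 with an adjusted p of 9.51e-06 in edgeR.

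AAC3 (YBR085W, chromosome II, 415983 to 416906), the hypoxic carrier gene, was at 9.19, 12.0 and 12.1 CPM at 0 min and at 9.82, 10.3 and 12.0 CPM at 180 min. The ranges coincided, and with 236 to 438 counts per library its interval, -0.40 to 0.30, was the widest of the 7 genes. Its log2 fold change was -0.05 ± 0.16 (SE). Rises the size of those of ANB1, COX5B and CYC7 lay outside the interval, while changes inside it were not resolved.

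CYC7 (YEL039C, chromosome V, 79636 to 79977), the hypoxic cytochrome c gene, was at 243, 210 and 217 CPM at 0 min and at 482, 365 and 308 CPM at 180 min. All 180 min libraries were higher, but they had the largest SD of the 7 genes at that time. The log2 fold change was 0.79 ± 0.13 (SE; interval 0.51 to 1.06), a fold of 1.72 with an adjusted p of 8.90e-05 in edgeR. Without 180 min library 1, the highest, it was 0.59 and still called.

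**Figure D2:**
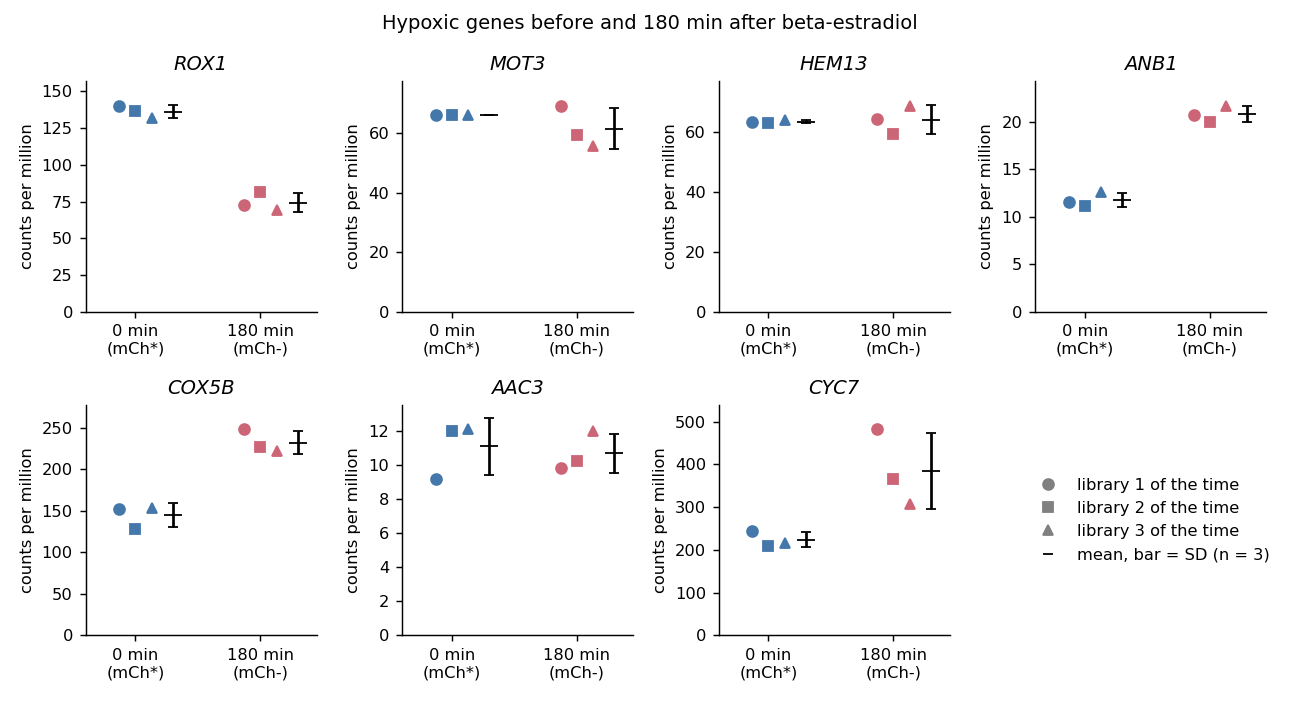
CPM (depth-scaled read count, vertical axes, from 0) of the 7 hypoxic genes in each of the 6 libraries, with the mean and SD of the 3 libraries of each time. ROX1 lies lower at 180 min, ANB1, COX5B and CYC7 lie higher, and the libraries of MOT3, HEM13 and AAC3 overlap between the times.

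Levels between genes were compared as CPM per kilobase of annotated gene span. At 0 min the order was CYC7 (653 ± 51.3), COX5B (266 ± 26.3), ROX1 (123 ± 3.92), HEM13 (64.1 ± 0.512), MOT3 (44.9 ± 0.058), ANB1 (24.8 ± 1.55) and AAC3 (12.0 ± 1.79; SD, n = 3), and no neighbours in this order overlapped in their libraries. At 180 min CYC7 (1126 ± 259) and COX5B (426 ± 25.8) still led and AAC3 (11.6 ± 1.25) was still lowest. ROX1 (67.1 ± 5.67) had come down to the level of HEM13 (64.8 ± 4.85), and ANB1 (43.8 ± 1.80) had come up to that of MOT3 (41.8 ± 4.71). Both of these pairs overlapped in their libraries and did not differ beyond their spread.

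None of the aerobic partners was called higher. HYP2, the main eIF5A gene, was at 2888, 2598 and 2197 CPM at 0 min and at 1718, 1804 and 1922 CPM at 180 min. Its libraries separated by time, with a log2 fold change of -0.50 ± 0.10 (SE) and an adjusted p of 7.16e-04 in edgeR. COX5A, at 133 to 175 CPM and then 121 to 147 CPM, overlapped between the times, with a log2 fold change of -0.27 ± 0.11 (SE) that was called lower (adjusted p = 0.0407 in edgeR). Leaving out library 1 or 2 of either time removed this call (adjusted p of 0.113 to 0.174 in edgeR). The call was also lost with library sizes only (log2 fold change -0.01) and with the replicate number as a block (-0.26, adjusted p = 0.0798 in edgeR). With the gene length trend removed it was lost too (-0.18, adjusted p = 0.169 in edgeR).

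CYC1, the aerobic cytochrome c gene, was at 145, 124 and 82.4 CPM at 0 min and at 92.9, 90.9 and 109 CPM at 180 min. Its mean was below that of CYC7 at both times. Library 3 of 0 min was the lowest of all 6, and the log2 fold change of -0.26 ± 0.15 (SE) was not called with it but was called without it (-0.46, adjusted p = 0.00109 in edgeR). PET9 (0.04 ± 0.10) and AAC1 (0.09 ± 0.10), the aerobic carrier genes, were not called, and both were called higher with library sizes only (0.29 and 0.34). Of the 5 partners 2 fell, 0 rose and 3 were not called, and the median was -0.26, against 28.2% called lower, 29.5% called higher and a median of 0.02 over all genes. The number lower was 1 without library 1 or 2 of either time and 3 without 0 min library 3.

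The ratio of hypoxic to aerobic counts within a library does not depend on the scaling between libraries. ANB1 amounted to 0.462% of HYP2 at 0 min and 1.15% at 180 min, as geometric means. The log2 ratio was -7.96, -7.86 and -7.45 at 0 min and -6.38, -6.50 and -6.47 at 180 min, a change of 1.31. COX5B rose from 91.4% to 176% of COX5A, with log2 ratios of -0.20, -0.39 and 0.20 and then 1.04, 0.82 and 0.59, a change of 0.95. In both pairs the 2 times were separate in all libraries.

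CYC7 was at 196% of CYC1 at 0 min and 389% at 180 min. Its log2 ratio was 0.75, 0.75 and 1.40 at 0 min and 2.37, 2.01 and 1.495 at 180 min, a change of 0.99, with a narrow gap between 0 min library 3 and 180 min library 3. AAC3 was at 3.77% and then 3.55% of PET9, with log2 ratios of -4.96, -4.79 and -4.44 and then -4.74, -4.90 and -4.81, a change of -0.09 that left the times intermixed. In the two-sided exact permutation test, the ANB1, COX5B and CYC7 ratios each gave p = 0.1, the smallest value that 3 against 3 libraries allow, and AAC3 gave p = 0.8. Adjusted over the 4 pairs these were 0.133 for ANB1, COX5B and CYC7 and 0.8 for AAC3 in the same exact permutation test, so the design cannot place any of them below 0.05.

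How far reads can be assigned to 1 gene of a pair depends on sequence. The coding sequences of ANB1 and HYP2, of 474 bases each, were 90.9% identical, with 43 bases as the longest shared run. CYC7 and CYC1 were 77% identical with a shared run of 35 bases, AAC3 and PET9 78.9% with 20, and COX5B and COX5A 66.4% with 12. No stretch of 50 bases was shared in any pair. Neither read length nor the handling of multi-mapping reads is stated in the labels, so the split of reads between ANB1 and the far more abundant HYP2 is uncertain. The called directions of the pair were opposite, and whether reads of HYP2 were counted for ANB1 was not tested.

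**Figure D3:**
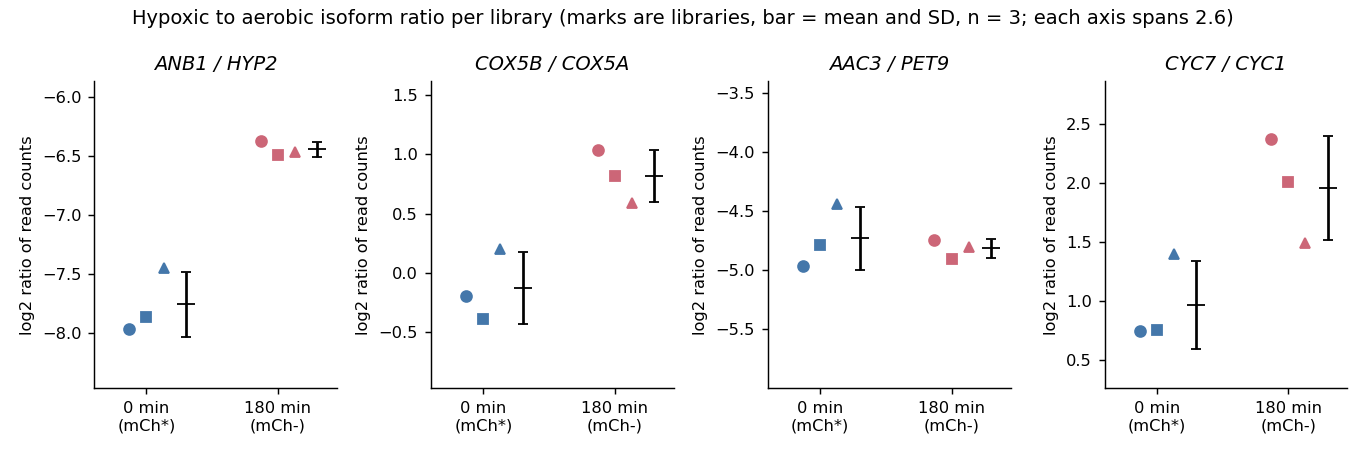
Log2 ratio of hypoxic to aerobic read counts (vertical axes) in the 3 libraries of each time, with mean and SD. The ratios of ANB1 to HYP2, COX5B to COX5A and CYC7 to CYC1 are higher in every 180 min library, and AAC3 to PET9 is not.

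ANB1 and CYC1 lie head to head on chromosome X, with 953 bases between their start codons (525382 to 526334). ANB1 rose, and CYC1 was not called. Other annotated genes within 1 kb of a start codon were HPM1, which fell by 0.84, and HOS4, which rose by 0.45, both beside COX5B, and RPL19A, a ribosomal protein gene beside AAC3, which fell by 0.74. UTR2 (-0.39) and UTR4 (-0.23) beside CYC7 and NAT4 (-0.52) beside MOT3 fell. YPR064W (-0.34), beside ROX1, was not called at under 1 CPM. Into the 500 bases before the start codon reach YPR064W at ROX1, HOS4 at COX5B and UTR4 at CYC7. The 2 ATTGTT matches before ROX1 lie inside YPR064W. No annotated gene overlapped any of the 7. These counts come from a stranded kit, but the strand setting of the counting is not given.

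The genes whose profile over the 6 libraries was closest to ROX1, by Pearson correlation of log2 CPM among the 5735 tested genes averaging 50 or more counts, were FPS1 (0.999, log2 fold change -0.34), TIF11 (0.998, -0.72) and YER137C (0.998, -0.70). With 2 groups of libraries this measure mostly follows the difference between the times, and 699 genes exceeded 0.95. For MOT3 the closest were RGA1 (0.995), SRT1 (0.987) and ELG1 (0.967), and 8 genes exceeded 0.95. All 6 correlations rest on 6 libraries and are descriptions.

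Of the 14 regulators of the oxygen and sterol response 5 were higher and 5 lower, and the other 4 were not called, where 29.5% of all genes were called higher and 28.2% lower. Their median log2 fold change was -0.14. The number lower was 3 without 0 min library 2 and 1 with library sizes only. It was 7 with TMM set without ribosomal protein genes, with protein-coding nuclear genes alone and with the gene length trend removed. In DESeq2, limma-voom, and edgeR with DESeq2 size factors or upper-quartile factors it was 6. The number higher was 3 with the gene length trend removed. UPC2, the activator of sterol uptake and anaerobic genes, rose from 67.1, 70.1 and 70.9 CPM to 111, 119 and 113 CPM, a log2 fold change of 0.72 ± 0.08 (SE; adjusted p = 1.04e-06 in edgeR). Its libraries separated widely by time. ECM22, its paralog (-0.23), was not called at an adjusted p of 0.0541 in edgeR, and was called lower with 7 of the 11 other settings and without 180 min library 1.

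SUT1, a regulator of sterol uptake, fell from 33.1, 32.2 and 27.4 CPM to 12.5, 13.1 and 9.59 CPM. This log2 fold change of -1.40 ± 0.14 (SE; adjusted p = 4.69e-07 in edgeR) was the largest in size of the 14 regulators, and all 180 min libraries were below all 0 min libraries. Its paralog SUT2 (-0.32) fell, but was not called with library sizes only (-0.07). MGA2 (0.38) and SPT23 (0.53), the membrane-bound activators of the fatty acid desaturase gene OLE1, rose, although the MGA2 call was lost with the gene length trend removed (0.14).

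HAP1 rose by 0.33 ± 0.08 (SE), from 94.0, 96.0 and 108 CPM to 132, 123 and 121 CPM, the opposite direction to ROX1. With the gene length trend removed it was at 0.05 and not called. HAP4, the regulated subunit of the Hap2/3/4/5 activator of respiratory genes, fell by 0.52 ± 0.14 (SE), HAP3 (-0.35) fell, HAP5 (0.42) rose and HAP2 (-0.06) was not called. With library sizes only, HAP4 (-0.27) and HAP3 (-0.09) were not called, and HAP3 was also lost with the length trend removed (-0.26), without 0 min library 2 (-0.31) and without 180 min library 1 (-0.30). TUP1, the corepressor gene, fell by 0.25 ± 0.08 (SE), a change that was 0.00 with library sizes only and not called without 0 min library 2 or 180 min library 2. Its partner CYC8 (-0.08) and the hypoxic regulator IXR1 (-0.20) were not called, except that CYC8 was called lower with the length trend removed (-0.28) and IXR1 lower under 3 other settings (-0.21 to -0.25) and without 180 min library 3 (-0.25).

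**Figure D4:**
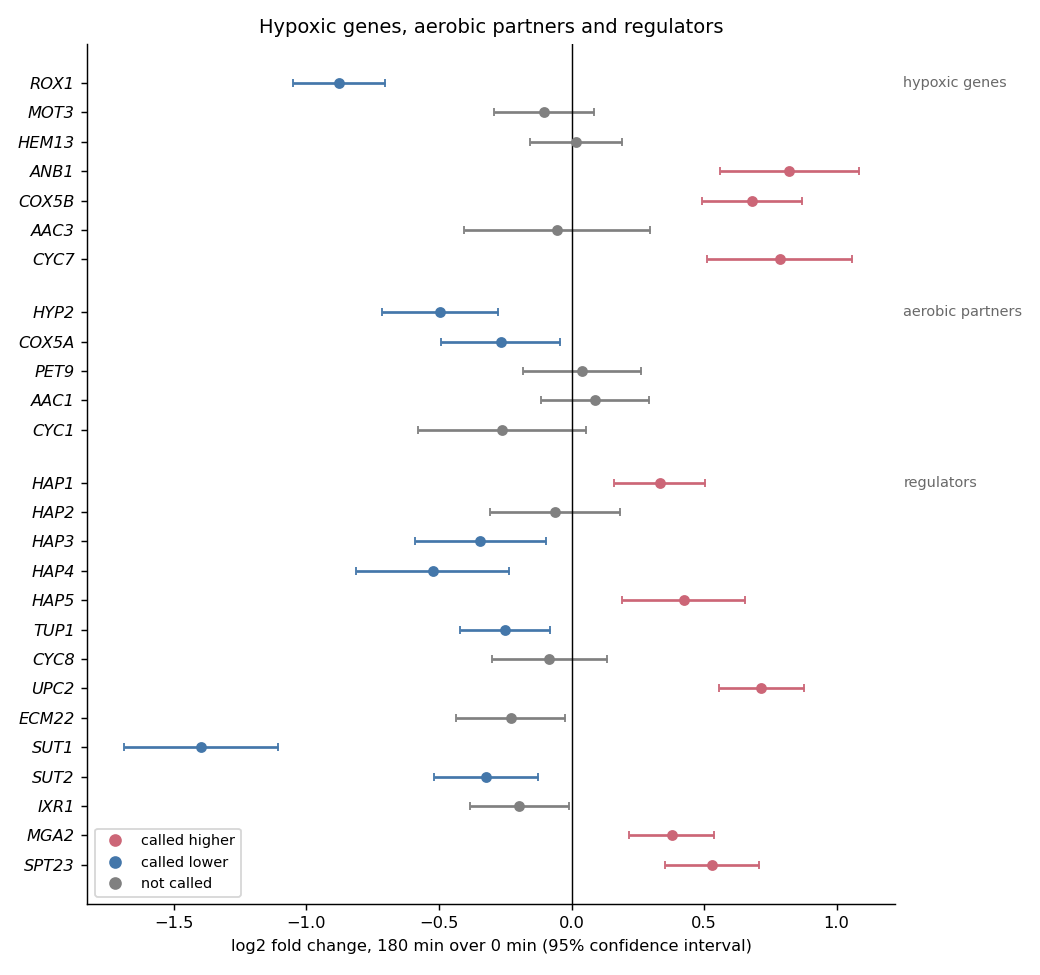
Log2 fold change of 180 min over 0 min (horizontal axis) with 95% confidence intervals for the 7 hypoxic genes, 5 aerobic partners and 14 regulators, coloured by call. ROX1 and SUT1 lie farthest to the left, and ANB1, CYC7, UPC2 and COX5B farthest to the right.

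Genes of the haem pathway were called in both directions. Among 9 genes 4 rose and 2 fell, leaving 3 uncalled, beside 29.5% higher and 28.2% lower over all genes, and the median was 0.03. With library sizes only 6 were higher and 1 lower. HEM15, ferrochelatase, which inserts iron in the last step, rose from 51.7, 63.97 and 60.5 CPM to 106, 97.0 and 105 CPM (log2 fold change 0.80 ± 0.09 SE, adjusted p = 1.87e-06 in edgeR). HEM4, uroporphyrinogen III synthase, rose by 0.69 ± 0.11, with 16.1 to 17.9 CPM at 0 min and 25.1 to 29.4 CPM at 180 min. HMX1, haem oxygenase, which degrades haem, fell by 0.69 ± 0.11, from 30.5 to 38.3 CPM down to 19.9 to 21.6 CPM. In each of these 3 genes the libraries of the 2 times were separate. Named after their values were seen, HEM1 (-0.40), the first enzyme, fell, except with library sizes only (-0.15, not called), HEM2 (0.40) and HEM14 (0.48) rose, and HEM3 (-0.17), HEM12 (0.03) and HEM13 were not called. HEM12 was called higher with library sizes only (0.28).

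Among 11 other genes linked to hypoxia 7 rose and 1 fell, leaving 3 uncalled, and the median was 0.27. Over all genes 29.5% were called higher and 28.2% lower, and the list was drawn up with earlier results known. The number higher was 4 without 180 min library 3, and 10 with library sizes only. The uncalled genes NCP1 (0.05), AUS1 (0.13) and ARE1 (0.09) were called higher with library sizes only (0.30, 0.38 and 0.35). HMG2, the hypoxic isoform of HMG-CoA reductase in sterol synthesis, rose from 76.7, 72.0 and 84.4 CPM to 136, 119 and 130.4 CPM (log2 fold change 0.72 ± 0.08 SE, adjusted p = 3.16e-06 in edgeR), with no overlap between times. Its aerobic counterpart HMG1 (-0.08) was not called, except lower with the length trend removed (-0.30). PDR11, a transporter for sterol uptake, rose by 0.61 ± 0.09, from 31.6 to 35.7 CPM up to 47.8 to 55.2 CPM. FET4 (0.32), ERG11 (0.30), OSM1 (0.27), SCM4 (0.27) and FRD1 (0.24), named after their values were seen, rose by less. The FET4 call was lost without 0 min library 2 (0.26), and the ERG11 call without 0 min library 1 (0.26) or 180 min library 3 (0.17). The SCM4 call was lost without 0 min library 2 or 3 or 180 min library 2 or 3 (0.17 to 0.28), and also with the replicate number as a block (adjusted p = 0.0541 in edgeR) and in DESeq2 (adjusted p = 0.0591). The FRD1 call was lost without 0 min library 3 or 180 min library 2 or 3 (0.15 to 0.26), and in 6 of the 11 other settings, the replicate block (adjusted p = 0.0773 in edgeR) and DESeq2 (adjusted p = 0.0582) among them. OLE1 (-0.30), the only one of the 11 to fall, was not called with library sizes only (-0.04) or without 0 min library 1 or 2 or 180 min library 1 or 2.

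Cell wall genes of anaerobic growth, which Mot3 and Rox1 are known to repress, included larger changes than any of the 7 hypoxic genes. Of 8 tested, 4 rose, 0 fell and 4 were not called, beside 29.5% higher and 28.2% lower over all genes. DAN4 (0.40) was the weakest of the 4, and its call was lost without 180 min library 1 (0.26) and with the length trend removed (0.16). TIR1 rose by 2.93 ± 0.18 (SE), from 5.88, 10.0 and 8.51 CPM to 58.4, 50.8 and 77.5 CPM. TIR3 rose by 0.85 ± 0.21, and by 0.48 without 180 min library 3. DAN1, with 8 to 19 counts per library at 0 min and 134 to 277 at 180 min, rose by 3.71 ± 0.37. Named after their values were seen, DAN2 (0.13), DAN3 (0.57), TIR2 (-0.30) and TIR4 (-0.06) were not called. Every 180 min library of TIR2 lay below every 0 min library, as was also so for the uncalled ECM22, IXR1 and HEM3. This list too was drawn up with earlier results known.

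In cytochrome c oxidase, the respiratory complex that COX5B or COX5A joins, 3 of 9 nuclear subunit genes rose, COX5B among them, 4 fell and 2 were not called, beside 29.5% higher and 28.2% lower over all genes. The number lower was 2 without 0 min library 1, 0 min library 2 or 180 min library 2, since COX12 (-0.34) and COX5A each lost their call, and it was 1 with library sizes only. COX9 fell by 0.61 ± 0.10 (SE), from 326 to 412 CPM down to 213 to 243 CPM, and COX7 by 0.50 ± 0.11, from 218 to 264 CPM down to 143 to 193 CPM. The COX7 call was lost with library sizes only (-0.25). Of 5 aerobic genes that Hap1 is known to activate, 2 rose, 1 fell and 2 were not called, beside the same shares over all genes. Without 0 min library 3, CYB2 (0.44, then 0.30) was no longer called and CYC1 was called lower, so that 1 rose and 2 fell. The CYB2 call was also lost without 180 min library 1 (0.38), which left 1 higher and 1 lower, and with the length trend removed 2 rose and 2 fell, HMG1 among them. CTT1, cytosolic catalase and also one of 6 stress markers, rose by 1.57 ± 0.10, and YHB1, a flavohaemoglobin, fell by 0.64 ± 0.10.

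**Figure D5:**
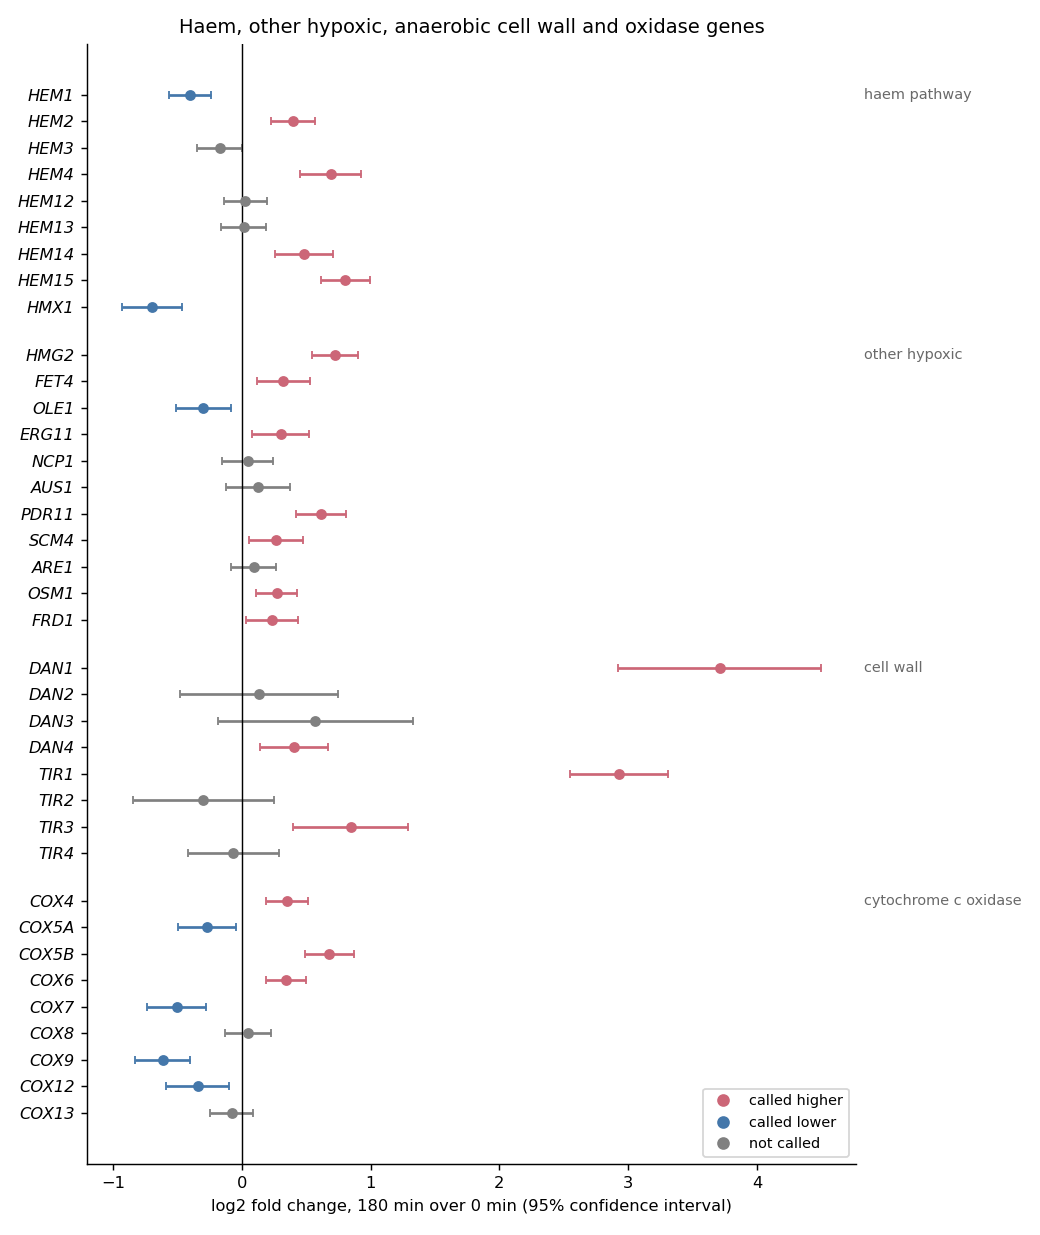
Log2 fold change of 180 min over 0 min (horizontal axis) with 95% confidence intervals for genes of the haem pathway, other hypoxic genes, anaerobic cell wall genes and cytochrome c oxidase, coloured by call. DAN1 (3.71) and TIR1 (2.93) stand far to the right of the other genes, and HEM15, HEM4 and HMG2 lie near 0.7 to 0.8.

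Library totals ran from 25987900 to 34032212 counts. The 6 markers of MATa cells summed to 2510 to 2978 CPM at 0 min and 1628 to 1891 CPM at 180 min, while those of MATalpha cells summed to 4.67 to 7.47 CPM over all libraries, with its alpha-factor genes at 0 to 17 counts, which matches the MATa label. Beside the changes above, 138 cytosolic ribosomal protein genes took 32.6 to 33.3% of counts at 0 min and 20.8 to 21.1% at 180 min. The 6 stress markers summed to 530.0 to 633 CPM and then 2056 to 2177 CPM, with HSP12, HSP26, GPH1 and YGP1 among them. All 6 rose, beside 29.5% called higher and 28.2% called lower over all genes. The 5 markers of growth without glucose summed to 75.0 to 84.0 CPM and then 67.6 to 86.0 CPM. Of these 5, 0 were called higher and 1 lower, beside the same shares over all genes. The part of growth and stress state in the changes of the hypoxic genes was not tested.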

How the data were processed

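The authors deposited whole-number read counts per gene, not normalized, for 6 libraries. The submitters' processing notes name HTSeq 0.6.1p1, STAR 2.5.3a, cutadapt 1.10 and bcl2fastq 2.20.0.422, and builds R64 and sacCer3. The strand setting and the handling of multi-mapping reads were not given in the sources used here. Groups and replicate numbers came from sample titles. Names, positions and sequence came from RefSeq R64, where 6047 of 7127 identifiers were found as locus tags and 41 as symbols. The other 1039 held 0.469% of counts.

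Counts were tested with edgeR 4.0.16 (R 4.3.3) by quasi-likelihood F test, two-sided, with TMM factors, the default filter by group (907 genes removed, 6220 tested) and Benjamini-Hochberg adjustment. Calls are genes with an adjusted p under 0.05. The test was checked on simulated counts. Isoform ratios used counts plus 0.5. Promoter windows were the 500 bases before the annotated start codon, read from the R64 genome in place of a promoter table. Coding sequences were aligned with Biopython 1.88, and matplotlib 3.10.9 drew the figures. Pearson correlations used log2 CPM with a prior count of 2.

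The genes and lists were chosen with earlier results of these data known. Text names the 7 genes and 5 partners, all regulators, called members of other lists at 0.5 or more in size on the log2 scale, the 3 genes closest to ROX1 and to MOT3, and neighbours within 1 kb. DESeq2 1.42.0, limma 3.58.1 (voom) and other scalings, filters and genes in the fit were alternatives. Same-time libraries differed beyond counting noise (chi-square per degree of freedom at least 25.0). Nothing in the labels says that same-numbered libraries share a culture. The p-values rest on the spread among 3 libraries of each time, which edgeR estimates for each gene with help from the other genes.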

Additional observations from a re-analysis of the deposited data

How the results depend on the processing

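ROX1, ANB1, COX5B and CYC7 kept their direction and call in all 17 alternatives, 11 of settings and 6 that each left out 1 library. Over the left-out libraries ROX1 ran from -0.95 to -0.84, ANB1 from 0.78 to 0.87, COX5B from 0.60 to 0.72 and CYC7 from 0.59 to 0.91 on the log2 scale. MOT3 and AAC3 were called in none of the 17 (smallest adjusted p in edgeR without 1 library 0.0672 for MOT3 and 0.412 for AAC3). HEM13 was called in 1, with library sizes only, at 0.27 (adjusted p = 0.00925 in edgeR), where the median of all genes moved by 0.25 and 75.6% of all calls were higher, against 51.1%. TUP1, called lower in the main fit, changed sign there, at 0.0033, uncalled. Several genes uncalled in both fits changed sign there too, MOT3 (-0.10, then 0.15) and AAC3 (-0.05, then 0.20) among them. Calls over all genes ranged from 3143 without 0 min library 2 to 3965 with library sizes only. With the replicate number as a block, 3390 genes and the same 4 hypoxic genes were called. Deviations of same-numbered libraries correlated at -0.02, -0.03 and -0.18, so the numbers do not show a pairing. Paired by number, the exact two-sided sign-flip p of the ANB1, COX5B and CYC7 ratios was 0.25, the smallest that 3 pairs allow. With 1 library left out, the change in log2 ratio ran from 1.21 to 1.47 for ANB1 to HYP2, 0.81 to 1.11 for COX5B to COX5A, 0.78 to 1.22 for CYC7 to CYC1 and -0.20 to 0.06 for AAC3 to PET9, the last positive without 0 min library 3. Depth limits AAC3 most among the 7 genes, and the cell wall genes DAN1, DAN2, DAN3 and TIR2 had fewer counts than AAC3 in every library. The cause of these shifts was not tested.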
